A study of Homo sapiens with 4 samples.

Results

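The steroid, retinoid and vitamin D receptors are 9 of the 43317 gene names on the arrays. They are the estrogen receptor ESR1, the progesterone receptor PGR, the glucocorticoid receptor NR3C1, the mineralocorticoid receptor NR3C2, the retinoic acid receptors RARA, RARB and RARG, the retinoid X receptor RXRA and the vitamin D receptor VDR. The genes were chosen by name, with their differences between resistant and parental arrays already known, and every one of the 17 probes that carries such a name was taken. The differences are therefore a description, and no test was made on them.

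The parental lines HN4 and HN30 are established human cell lines of head and neck squamous cell carcinoma (HNSCC), grown in medium with serum. Exposure to rising amounts of the DNA-damaging platinum drug cisplatin turned each into a resistant line, HN4/DDP or HN30/DDP. Both resistant lines were kept in 20 μM cisplatin, for 48 h by the sample labels, while no drug is named for the parental lines, so the resistant state and the drug in the medium cannot be told apart. RNA of each of the 4 conditions was hybridised to 1 one-colour Agilent array, with 1 array per condition and no replicate, so every difference stands without a replicate check and the number of arrays limits its precision.

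The steroid receptors wait in complex with chaperones and move to DNA as dimers once their hormone binds. The retinoic acid and vitamin D receptors sit on DNA as pairs with a retinoid X receptor, where corepressors are exchanged for coactivators when the ligand arrives. In squamous epithelium, retinoic acid is known for restraining keratinisation, vitamin D and glucocorticoids for acting on keratinocyte growth and differentiation, and RARG is the main retinoic acid receptor of the epidermis.

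The promoter stretches below show the kinds of control region these genes carry. They are the 250 bases before a start site in RefSeq (GRCh38.p14), written 5′ to 3′ on the strand of the gene. RARG and RXRA are shown because both were lower in HN4/DDP. NR3C2 is shown because it had the largest difference in HN30/DDP, and RARB because the letters of a known retinoic acid response element stand in it. The stretches lie at chr12:53232210-53232459 (minus strand, the only start site listed for RARG), chr9:134326205-134326454 (plus strand, the most upstream of 2 for RXRA), chr4:148442415-148442664 (minus strand, the most downstream of 4 for NR3C2) and chr3:25428013-25428262 (plus strand, 1 of 4 for RARB). Capitals mark the GC box GGGCGG on either strand, with overlapping matches kept, in the first 3 stretches, and a spaced repeat in the last.
RARG: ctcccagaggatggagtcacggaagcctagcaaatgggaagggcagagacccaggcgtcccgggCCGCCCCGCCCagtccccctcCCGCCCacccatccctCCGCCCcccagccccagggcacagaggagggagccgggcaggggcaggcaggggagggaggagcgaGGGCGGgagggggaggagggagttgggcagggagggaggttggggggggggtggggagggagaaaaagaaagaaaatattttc
RXRA: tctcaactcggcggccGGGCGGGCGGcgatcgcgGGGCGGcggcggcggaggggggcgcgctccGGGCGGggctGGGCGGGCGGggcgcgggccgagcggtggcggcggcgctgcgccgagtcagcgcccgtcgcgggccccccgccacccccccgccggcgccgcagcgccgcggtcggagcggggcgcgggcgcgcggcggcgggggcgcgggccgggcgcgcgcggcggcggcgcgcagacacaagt
NR3C2: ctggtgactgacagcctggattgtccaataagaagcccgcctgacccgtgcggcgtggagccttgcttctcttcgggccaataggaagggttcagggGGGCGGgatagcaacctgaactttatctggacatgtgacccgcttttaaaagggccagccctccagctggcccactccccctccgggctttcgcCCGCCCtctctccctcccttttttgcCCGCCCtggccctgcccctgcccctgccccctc
RARB: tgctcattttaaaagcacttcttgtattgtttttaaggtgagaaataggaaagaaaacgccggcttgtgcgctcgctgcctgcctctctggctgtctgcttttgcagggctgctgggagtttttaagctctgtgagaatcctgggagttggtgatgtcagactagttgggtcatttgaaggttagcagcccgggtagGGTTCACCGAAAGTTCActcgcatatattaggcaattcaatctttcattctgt

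The RARG stretch held 5 GC boxes, the RXRA stretch 6 and the NR3C2 stretch 3. The share of bases that are G or C was 69.6% for RARG, 89.2% for RXRA and 63.6% for NR3C2, beside a median of 58% over 35116 start sites. A GC box stood before 21 of the 30 start sites listed for 8 of the receptors and before 42.6% of all start sites. The table lists none for VDR. The capitals in RARB mark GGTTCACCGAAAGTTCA, from 53 to 37 bases before the start, which is the textbook retinoic acid response element of the RARB2 promoter. A repeat of this kind, with the hexamer AGGTCA, its variant GGTTCA or the variant AGTTCA at each end in the same direction and 5 bases between them, stood before 18 of the 35116 start sites (0.0513%), and a single hexamer of these before 25.1% of them. The hexamer AGAACA, known as a binding motif of the glucocorticoid, mineralocorticoid and progesterone receptors, stood before 3 of the 30 start sites of the receptors and before 12.4% of all. A match describes the letters only, since the arrays did not measure binding.

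Levels are given as log2 of the spot signal relative to the 75th percentile of the same array, and the level of a receptor is compared between arrays on the same probe, not with that of another receptor. The 75th percentile of the signal was between 444 and 496 on the arrays, and 55.3% to 63.6% of spots were well above background. Each receptor probe was printed in 1 spot. The scanner SD, which follows from the scanner's own error of the signals, is given beside a difference, and variation from culture to culture is not part of it. In a bulk sample, fewer cells of a type and less RNA per cell cannot be told apart.

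All 10 squamous epithelial markers were well above background on 3 of the arrays and 8 of 10 in HN30/DDP, where KRT6A and KRT6B, keratins of activated squamous cells, were at least 183-fold and at least 73.8-fold lower than in HN30. In HN4/DDP the list had 3 genes higher past a log2 difference of 2, KRT6A (3.32), KRT17 (3.29) and KRT14 (2.33), and 1 lower, KRT5 (-4.05). Of the 6 fibroblast markers, 2 were well above background on each array, and COL1A2, COL3A1, DCN and LUM on none, while COL1A1 differed by 1.73 and 2.43 in the HN4 and HN30 lines. A second PDGFRB probe differed by 4.77 in HN30/DDP. The summed signal of the squamous list was 155 times the 75th percentile on HN30/DDP and 247 to 262 times on the others. That of the fibroblast list was 0.394 in HN4 against 1.03 in HN4/DDP, and 0.223 in HN30 against 0.771 in HN30/DDP. That of the immune list, with 3 or 4 of 5 measured markers above background, was 6.43 against 9.47, and 3.74 against 40.0, and CD14, which is also a vitamin D target, differed by 0.56 and 3.49. ITGAM, another marker of the immune list, was above background on all 4 arrays and differed by 1.53 and 2.06. The summed signal of the endothelial list, with 4 of 6 above background on HN30/DDP and 2 on the others, was 0.281 against 0.330, and 0.240 against 0.525. In that list KDR and TEK were dim on all arrays, CLDN5 was at least 5.75-fold higher in HN30/DDP, VWF at least 5.37-fold higher (another of its probes differed by -0.04) and PECAM1 at least 2.05-fold lower in HN4/DDP. The part of these markers in the receptor values was not tested.

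Of the 17 receptor probes, 10 were well above background on all 4 arrays, 2 on some and 5 on none. VDR, RXRA, RARA, RARG, NR3C1, NR3C2 and ESR1 each had a probe well above background on all 4 arrays, RARB had a probe so on 1 array, and PGR on none. VDR, RXRA, RARG and NR3C1 were each about 1 log2 unit lower in HN4/DDP than in HN4, and none of these 4 was lower to that extent in HN30/DDP than in HN30. NR3C2 in HN30/DDP was 4.16-fold above HN30 in the main setting, and by a log2 difference under 2 with 5 of the 7 alternatives.

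**Figure D1:**
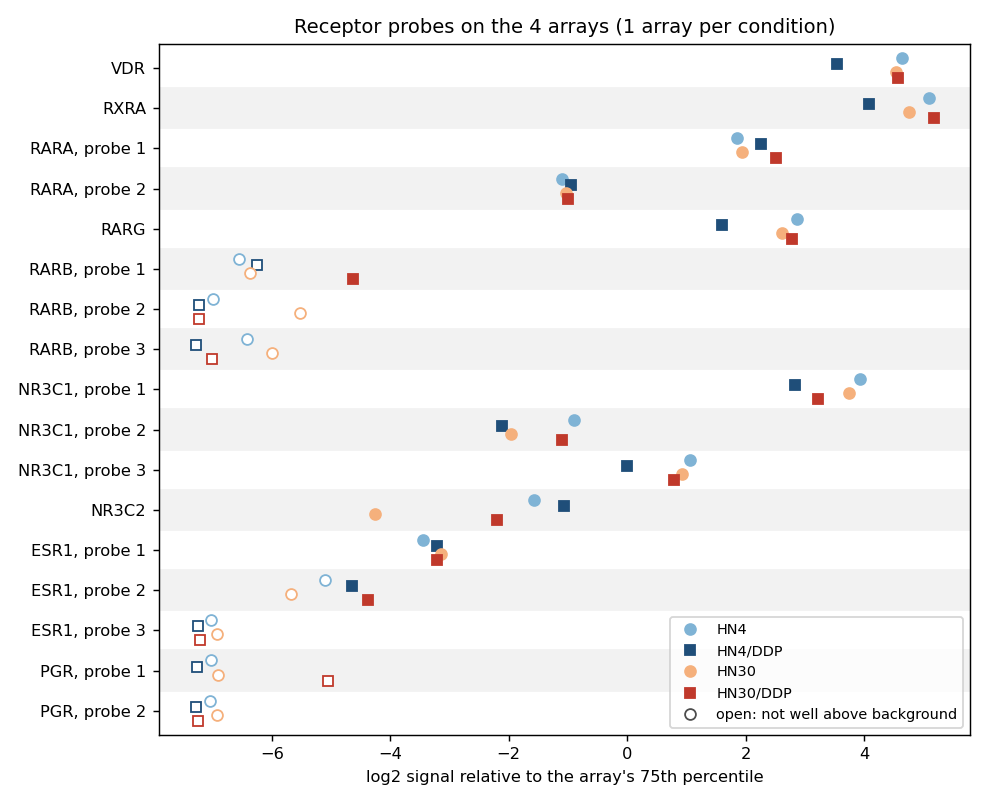
Levels of the 17 receptor probes (x axis, log2 signal relative to the 75th percentile of the array; y axis, probes, with probe 1 the one that represents the gene) on the 4 arrays, 1 point per array, open where the spot was not well above background. The HN4/DDP square stands to the left of the other 3 points for VDR, RXRA and RARG, and both PGR probes are open on every array; levels of different probes are not comparable.

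VDR, which binds the active form of vitamin D, was measured by 1 probe at chr12:48235502-48235561 (hg19, minus strand). Its level was 4.65 in HN4 against 3.54 in HN4/DDP, and 4.54 in HN30 against 4.56 in HN30/DDP. HN4/DDP was the low array, and the other 3 levels followed each other within 2 scanner SDs. This is a log2 difference of -1.10 between HN4/DDP and HN4, a 2.15-fold lower signal, and of 0.02 between HN30/DDP and HN30 (scanner SD 0.20 in each).

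RXRA, the shared partner of the retinoic acid and vitamin D receptors, was measured by 1 probe at chr9:137331772-137331831 (hg19, plus strand). Its level was 5.09 in HN4 against 4.08 in HN4/DDP, and 4.75 in HN30 against 5.17 in HN30/DDP. HN4/DDP was again the low array. The log2 difference was -1.01 in HN4/DDP, 2.01-fold lower, and 0.42 in HN30/DDP, 1.34-fold higher (scanner SD 0.20 in each), and scaling on the array median reduced the second to 0.0012.

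RARG was measured by 1 probe at chr12:53604565-53604624 (hg19, minus strand). Its level was 2.86 in HN4 against 1.60 in HN4/DDP, and 2.61 in HN30 against 2.78 in HN30/DDP. This was the receptor with the largest difference in the HN4 line, -1.26 (scanner SD 0.20) or 2.39-fold lower in HN4/DDP, while the difference in HN30/DDP was 0.17. The pattern over the arrays was like that of VDR, with HN4/DDP low and the other 3 within 2 scanner SDs of their neighbours.

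RARA, the retinoic acid receptor found in most tissues, was measured by a pair of probes to the same transcript. The probe at chr17:38512928-38512987 (hg19, plus strand) gave 1.85 in HN4 against 2.26 in HN4/DDP, and 1.94 in HN30 against 2.51 in HN30/DDP. Its differences were 0.41 in HN4/DDP and 0.57 in HN30/DDP (scanner SD 0.20 in each), each resistant array being above its parental array. The second ranged from 0.15 with scaling on the array median to 0.92 with quantile normalization. The other probe, at chr17:38513174-38513233, gave -1.11, -0.95, -1.04 and -1.0002 in the same order, with differences of 0.16 and 0.04 that lie within 1 scanner SD of 0.21, and scaling on the array median turned the second to -0.38. On neither probe were neighbouring levels more than 2 scanner SDs apart, and unlike RARG, RARA was not lower in HN4/DDP.

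RARB, a retinoic acid receptor that is itself a retinoic acid target through the element shown above, was at or below background nearly everywhere. The probe at chr3:25638622-25638681 (hg19, plus strand) gave -6.56 in HN4 against -6.24 in HN4/DDP, and -6.37 in HN30 against -4.62 in HN30/DDP, and was well above background only on the last. The measured difference in HN30/DDP was 1.74 (scanner SD 1.05), but against the lowest signal well above background in HN30 it was no more than at least 1.002-fold higher. Its other probes, at chr3:25636109-25636168 and chr3:25469694-25469753, were not well above background on any array.

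NR3C1, the glucocorticoid receptor, was measured by 3 probes, and all 3 were lower in HN4/DDP than in HN4. The probe that represents the gene, at chr5:142660729-142660788 (hg19, minus strand), gave 3.92 in HN4 against 2.83 in HN4/DDP, and 3.74 in HN30 against 3.22 in HN30/DDP. Its differences were -1.10 in HN4/DDP and -0.52 in HN30/DDP (scanner SD 0.20 in each), so that both parental arrays stood above both resistant arrays. A probe on the same transcript, at chr5:142657518-142657577, gave 1.06, -0.01, 0.92 and 0.79, with differences of -1.07 and -0.13. The third probe, at chr5:142673451-142673510, carries another transcript of the gene. It gave -0.90 in HN4 against -2.12 in HN4/DDP, and -1.96 in HN30 against -1.11 in HN30/DDP, a difference of -1.22 in the HN4 line and of 0.85 in the HN30 line (scanner SD 0.21 in each). In the HN30 line the 3 probes thus spanned -0.52 to 0.85, and in the HN4 line -1.22 to -1.07.

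NR3C2, the mineralocorticoid receptor, varied most over the arrays among the receptors above background. Its probe at chr4:149000364-149000423 (hg19, minus strand) gave -1.58 in HN4 against -1.07 in HN4/DDP, and -4.26 in HN30 against -2.20 in HN30/DDP, well above background on all 4. No neighbours in this order lay within 2 scanner SDs of each other. It was higher in both resistant lines, at 0.51 above HN4 in HN4/DDP (scanner SD 0.21) and 2.06 above HN30 in HN30/DDP (scanner SD 0.31). HN30 was the low array, and the difference between the parental lines, HN30 minus HN4, was -2.68 (scanner SD 0.31), larger than either difference between a resistant and a parental array. The HN30 level was close to the lowest level well above background on that array, -4.63. With normexp the parental difference was -1.34, and with the pseudocount of 16 it was -2.06. In HN30/DDP the level remained below that of HN4/DDP, by 1.14 on the log2 scale. The difference in the HN30 line was positive under all 7 alternatives and lay between 0.88, with the normexp background correction, and 2.06. It was under 2 with normexp, the pseudocount of 16 (1.51), scaling on the array median (1.64), the deposited values (1.701) and quantile normalization (1.71).

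ESR1, the estrogen receptor, gave a low signal, and its brightest probe was nearly level over the arrays. The probe at chr6:152129048-152129107 (hg19, plus strand) gave -3.45 in HN4 against -3.22 in HN4/DDP, and -3.14 in HN30 against -3.22 in HN30/DDP, all well above background, with differences of 0.23 and -0.08 that are within the scanner SD of 0.25, and quantile normalization moved the second to -0.53. The probe at chr6:152423908-152423967 gave -5.10, -4.65, -5.68 and -4.38 and was well above background only on the resistant arrays. The bound on that rise in signal was at least 1.09-fold for HN4/DDP against its parental array and at least 1.18-fold for HN30/DDP. The third probe, at chr6:152265523-152265582, was not well above background on any array. PGR, the progesterone receptor, which estrogen induces in breast and uterus, was not well above background on any array with either probe, at chr11:100900858-100900917 and chr11:100912709-100912768 (hg19, minus strand).

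Across the lines, VDR, RARG and RXRA differed less between the parental arrays than between the resistant arrays. Between the parental arrays, HN30 minus HN4, the log2 difference was -0.11 for VDR, -0.25 for RARG, -0.34 for RXRA and -0.19 for NR3C1, where the other NR3C1 probes gave -0.14 and -1.06. Between the resistant arrays, HN30/DDP minus HN4/DDP, it was 1.02 for VDR, 1.18 for RARG, 1.09 for RXRA and 0.39 for NR3C1, where the other NR3C1 probes gave 0.80 and 1.01. With every alternative, the second difference stayed above 0, from 0.67 to 1.33 for VDR, from 0.82 to 1.40 for RARG and from 0.73 to 1.41 for RXRA, while that of NR3C1 came down to 0.04 with scaling on the array median. NR3C2 was lower in HN30 than in HN4 and lower in HN30/DDP than in HN4/DDP under every alternative. These gaps between lines were not tested, with 1 array per condition.

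**Figure D2:**
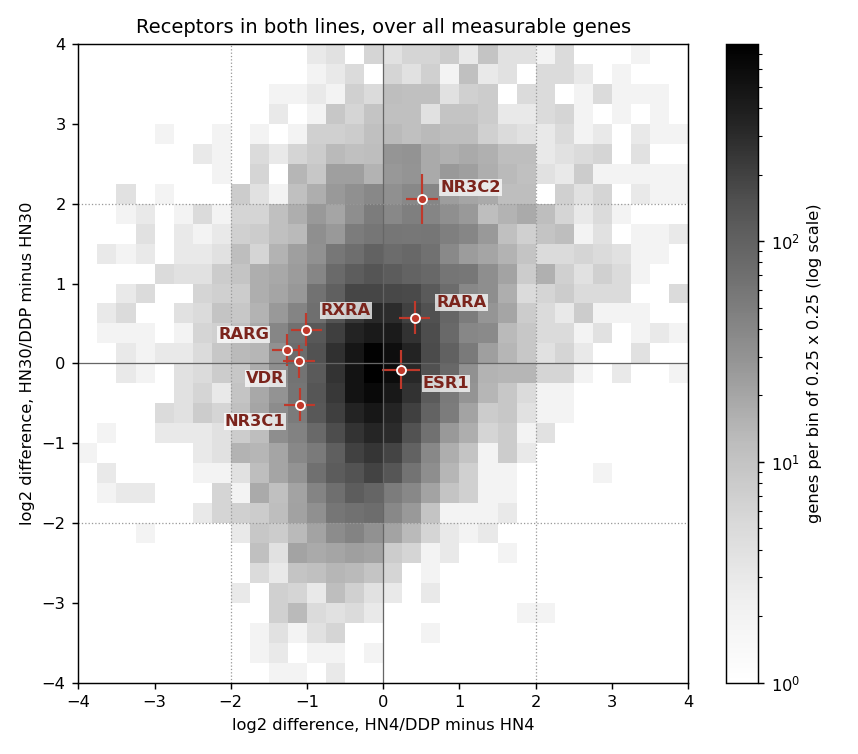
Log2 difference of resistant minus parental array in the HN4 line (x axis) and the HN30 line (y axis) for the 7 receptors well above background on all arrays (points, with bars of 1 scanner SD), over the number of all genes measurable in both lines (grey, bins of 0.25). VDR, RARG, RXRA and NR3C1 lie close to -1 on the x axis and between -0.52 and 0.42 on the y axis, and NR3C2 is the only receptor past a dotted line at 2.

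A gene was counted as higher or lower where its log2 difference passed 2 and its signal on the brighter array was well above background. In HN4/DDP, 0 of the 7 receptors above background on either array of the pair were higher and 0 lower, where 3.61% and 2.2% of the 26853 genes tested were. In HN30/DDP, 1 of 8 was higher, NR3C2 with 2.06, and 0 lower, where 8.37% and 2.75% of 28330 genes were, and the count was 0 with 5 of the alternatives. Of the 8, the next in size was RARB with 1.74, taken against a dim HN30 signal, and it was 0.0030 with that signal at its bound. At a limit of 1, 4 receptors were lower in HN4/DDP and 0 higher, beside 8.65% and 9.31% of all genes. Those 4 were VDR, RARG, NR3C1 and RXRA, the last just inside with -1.01, and the next in size was NR3C2 with 0.51. With quantile normalization only RARG passed that limit, with the deposited values RARG and NR3C1, and with scaling on the array median all of the 4 but RXRA. In HN30/DDP, 2 were higher at that limit, NR3C2 and, only against its dim parental signal, RARB, and 0 lower, beside 19.8% and 13.3% of all genes. As the receptors were chosen from the same contrast, nothing follows from these shares.

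The median difference of the 7 receptors in HN4/DDP was -1.01, beside -0.08 over all genes, with 4 below 0 and 3 above. Among all genes of the line, 5.68% had a lower difference than RARG, 7.28% than VDR, 7.41% than NR3C1 and 8.55% than RXRA. In HN30/DDP the median of 8 receptors was 0.30, or -0.12 with scaling on the array median and 0.75 with quantile normalization, beside 0.06 over all genes in the main setting, and 92.1% of genes had a lower difference than NR3C2.

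The way the arrays were put on a common scale decided the sign of small differences in the HN30 line. Scaling on each array's median moved the median over all genes in HN30/DDP from 0.06 to -0.36, and relative to the all-gene median, which no such scaling alters, the difference in HN30/DDP was 1.999 for NR3C2, 0.52 for RARA, 0.36 for RXRA, 0.11 for RARG, -0.03 for VDR and -0.57 for NR3C1. Bright genes had another median. The mean levels of VDR, RXRA, RARG, NR3C1 and RARA span 2.14 to 4.78, a range with 4189 genes above background on all arrays. The median difference of those genes was -0.45 in HN30/DDP, with 70.2% below 0, and -0.09 in HN4/DDP, with 58.2% below 0. Over the 7 alternatives run on each probe, VDR in HN30/DDP ranged from -0.40 to 0.58 and RARG from -0.25 to 0.56, so no direction is given for either. RXRA ranged from 0.0012 to 0.99 and NR3C1 from -0.93 to -0.05. In HN4/DDP the same alternatives kept VDR between -1.10 and -0.97, RARG between -1.26 and -1.18, RXRA between -1.01 and -0.89 and NR3C1 between -1.10 and -0.99. Relative to the all-gene median of that line, the differences were -1.03, -1.18, -0.93 and -1.02 in the same order.

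**Figure D3:**
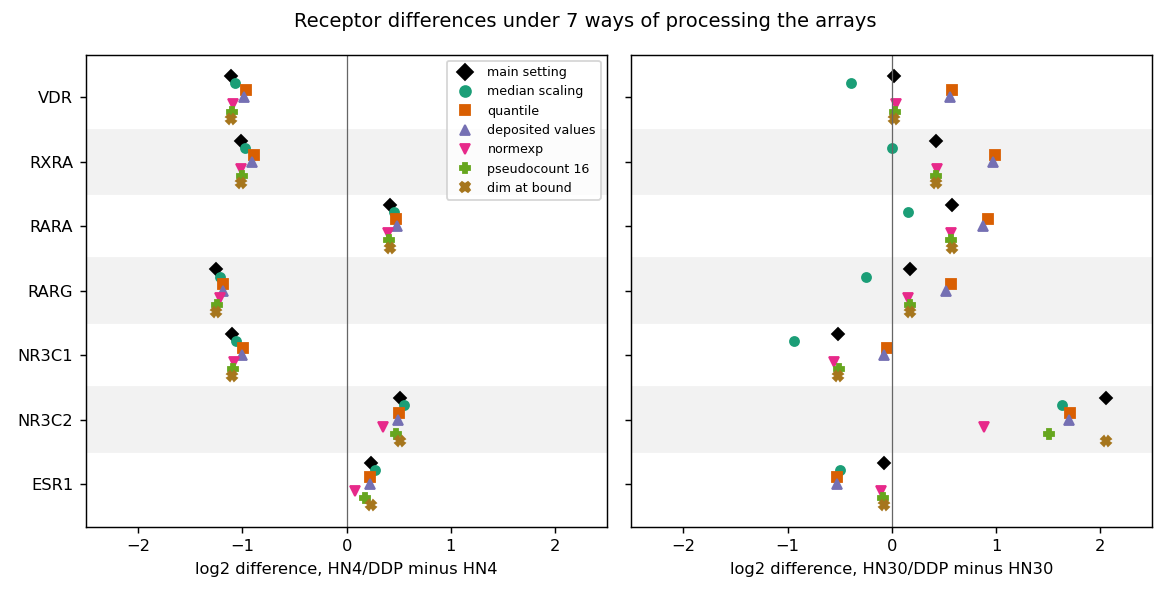
Log2 difference of resistant minus parental array (x axis) for the 7 receptors well above background on all arrays (y axis) in the HN4 line (left) and the HN30 line (right), 1 symbol per way of processing. In HN4/DDP the symbols of VDR, RARG, RXRA and NR3C1 all lie between -1.26 and -0.89, while in HN30/DDP those of VDR and RARG fall on both sides of 0.

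For the 3 receptors that varied most among those above background on at least 2 arrays, the genes with the closest pattern were found among 22148 genes well above background on the same arrays, by the Euclidean distance between the 4 levels after each gene was centred on its own mean. For VDR they were the transcript ENST00000540982 (distance 0.0364), IFT22 (0.0376) and AFF1 (0.0574). For RARG they were ADD3 (0.0896), MMP28 (0.0943) and PCGF5 (0.104). NR3C2 had no gene as close, with lnc-ANKH-1 at 0.374, SH3PXD2B at 0.476 and PADI1 at 0.490. With 4 arrays and many genes, close patterns are a description only.

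ESR2, the other estrogen receptor, was not well above background on any array. Of the other retinoid X receptors, RXRB differed by 0.22 in the HN4 line and 0.39 in the HN30 line, and RXRG by 0.63 and -0.14.

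The target lists hold genes known as targets of these receptors, and they were counted as the receptors were. Whether the receptors act on these genes in the cells used was not measured. Among all genes, 3.61% were higher and 2.2% lower in HN4/DDP, and 8.37% and 2.75% in HN30/DDP. Of 12 glucocorticoid receptor targets, 0 of 10 tested passed a difference of 2 in HN4/DDP, and in HN30/DDP 2 of 11 were higher and 1 was lower. The higher genes were TSC22D3, also called GILZ, with 2.19 and KLF9 with 2.94, and the lower gene was the kinase SGK1 with -2.05. TSC22D3 stood at 2.23 in HN4 against 2.07 in HN4/DDP, and 0.75 in HN30 against 2.94 in HN30/DDP, and KLF9 at 0.59, 0.19, -0.70 and 2.24. SGK1 stood at 1.22, 1.19, 1.75 and -0.29. HN30/DDP was thus the high array for the first pair and the low array for SGK1. SGK1 was not counted with normexp, quantile normalization or the deposited values, and 1 of the 2 higher genes not with scaling on the array median. NFKBIA, the inhibitor of NF-κB, differed by -1.09 and -0.84, the receptor regulator ERRFI1 by -0.26 and 0.18, and FKBP5, a chaperone partner of the receptor, was dim on all arrays. The list's median was -0.21 in HN4/DDP and 0.55 in HN30/DDP, where it came down to 0.13 with scaling on the array median, 0.18 with dim signals at their bound, 0.20 with normexp and 0.32 with quantile normalization.

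Of 12 retinoic acid targets, 10 could be tested in each line. Over all genes, 3.61% were higher and 2.2% lower in the HN4 pair, and 8.37% and 2.75% in the HN30 pair. In each line 1 of these targets was higher and 1 lower. The lower gene of HN4/DDP was not counted with normexp, nor the higher gene of HN30/DDP with scaling on the array median. CRABP2, which carries retinoic acid to its receptors, stood at -1.24 in HN4 against 3.51 in HN4/DDP, and -0.25 in HN30 against 1.98 in HN30/DDP, higher by 4.75 and 2.22 in the resistant lines. Its other probe differed by only 0.08 and 0.06, so the size rests on 1 probe. CYP26A1, which degrades retinoic acid, stood at 0.56, -1.77, -0.84 and 0.81, lower by 2.33 on the log2 scale in HN4/DDP and higher by 1.65 in HN30/DDP. DHRS3, an enzyme that returns retinal to retinol, stood at 6.38, 4.71, 5.84 and 6.45, with differences of -1.67 and 0.61. For both enzymes HN4/DDP was the low array, as for RARG and RXRA, while for CRABP2 it was the high array. A link between these levels and the receptors was not tested. TGM2, a transglutaminase, differed by 0.65 in HN4/DDP and -4.42 in HN30/DDP, where its other probe gave 0.50. STRA6, a retinol transporter, differed by 0.16 and 1.54, and its other probe gave -1.06 in HN30/DDP. The list's median was 0.10 in HN4/DDP and 0.87 in HN30/DDP, or 0.45 there with scaling on the array median.

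Of 12 vitamin D targets, 8 could be tested, and 3 were higher in each resistant line and 0 lower, against 2 and 1 with normexp. The share of all genes that were higher was 3.61% for the HN4 pair and 8.37% for the HN30 pair. In HN4/DDP these were TRPV6, a calcium channel, with 4.18, SPP1, which encodes osteopontin, with 4.11, and CAMP, an antimicrobial peptide, at least 1.46-fold. In HN30/DDP they were CYP24A1, the enzyme that inactivates vitamin D, with 3.77, CD14, a receptor for bacterial lipopolysaccharide, with 3.49, and CAMP, at least 3.03-fold. CYP24A1 stood at -5.06 in HN4 against -4.54 in HN4/DDP, and -4.55 in HN30 against -0.78 in HN30/DDP, and TRPV6 at -3.42, 0.76, -4.33 and -2.43. SPP1 stood at -2.93, 1.18, -3.54 and -2.83, and CD14 at 2.63, 3.19, 1.82 and 5.30. CAMP was dim on both parental arrays, so its counts rest on dim signals, and with these at their bound 2 genes were higher in each line. The other TRPV6 probe gave 4.55 and 4.10. VDR itself differed by -1.10 and 0.02. THBD, thrombomodulin, differed by 1.34 and 0.86. The list's median was 0.95 in HN4/DDP and 1.69 in HN30/DDP, with 6 of 8 and 7 of 8 genes above 0, and 44.1% and 52.9% of all genes above 0. With normexp the medians were 0.52 and 0.67, and with dim signals at their bound 0.55 and 1.55.

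Of 12 estrogen and progesterone receptor targets, 1 of 6 tested was higher in HN4/DDP and 3 of 8 in HN30/DDP, and 0 were lower in either. The share of all genes higher was 3.61% and 8.37%, and the share lower 2.2% and 2.75%, in the same order. GREB1, an estrogen-induced cofactor, was dim on both parental arrays and higher by at least 10.8-fold in HN4/DDP and 4.14-fold in HN30/DDP. Another of its probes differed by 1.61 in HN4/DDP, and with normexp 0 genes of the list were counted there. SUSD3, a membrane protein, differed by 1.66 and 3.67. WNT4, a secreted signal, stood at -2.21 in HN4 against -2.12 in HN4/DDP, and -3.48 in HN30 against 1.51 in HN30/DDP, a difference of 4.98 in HN30/DDP, but its other probe gave -0.52. XBP1 differed by 0.47 and -0.40. The list's median was 0.28 and 0.19, and the second turned to -0.23 with scaling on the array median and to -0.06 with normexp.

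Of 20 enzymes and carriers that make, move or remove the ligands, 15 could be tested. DHRS9, an enzyme of retinoic acid synthesis, stood at -6.75 in HN4 against 1.97 in HN4/DDP, and -6.92 in HN30 against -7.22 in HN30/DDP, well above background only in HN4/DDP and there at least 106-fold higher. It was the gene of this list past 2 in that line, where 3.61% of all genes were higher and 2.2% lower. In HN30/DDP 1 gene was higher and 1 lower, beside 8.37% and 2.75% of all genes. The higher one, dim in HN30, was not counted with dim signals at their bound, the pseudocount of 16 or normexp. HSD11B1, which regenerates cortisol from cortisone, was at least 1.54-fold higher, and FABP5, a fatty acid carrier that also binds retinoic acid, was lower by 2.84 on the log2 scale. ALDH1A3, which oxidises retinal to retinoic acid, stood at 7.35, 6.42, 7.66 and 6.78, with differences of -0.93 and -0.88, although its other probe gave 0.75 in HN30/DDP. CYP2R1, a vitamin D hydroxylase, differed by 0.24 and 0.19, and by -0.34 and -0.22 on its other probe. The list's median was -0.03 in HN4/DDP and -0.06 in HN30/DDP. In the HN30 pair it was -0.48 with scaling on the array median and -0.31 with quantile normalization or the deposited values.

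All 18 receptor coregulators and chaperones could be tested. In HN4/DDP 0 passed 2 in either direction, and in HN30/DDP 1 did, the chaperone HSPA8, which was lower by 2.75 on the log2 scale. Past 2, the shares of all genes were 3.61% higher and 2.2% lower in HN4/DDP, and 8.37% and 2.75% in HN30/DDP. HSPA8 stood at 6.10 in HN4 against 5.68 in HN4/DDP, and 6.88 in HN30 against 4.13 in HN30/DDP. HSP90AA1, the inducible HSP90 that holds steroid receptors ready for hormone, stood at 8.24, 8.08, 8.89 and 7.31, with differences of -0.17 and -1.58, and another of its probes gave -2.17 in HN30/DDP. At a limit of 1, 3 of the 18 were lower in HN4/DDP and 6 in HN30/DDP, with 0 higher in either, beside 8.65% and 13.3% of all genes lower and 9.31% and 19.8% higher. Among the 4189 genes in the receptors' brightness range given above, 6.47% and 24.7% were below -1, and 3.27% and 6.8% above 1. Not all of the 18 lie in that range. The list's median was -0.21 in HN4/DDP and -0.43 in HN30/DDP. Scaling on the array median gave -0.85 in HN30/DDP with 2 genes lower past 2.

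**Figure D4:**
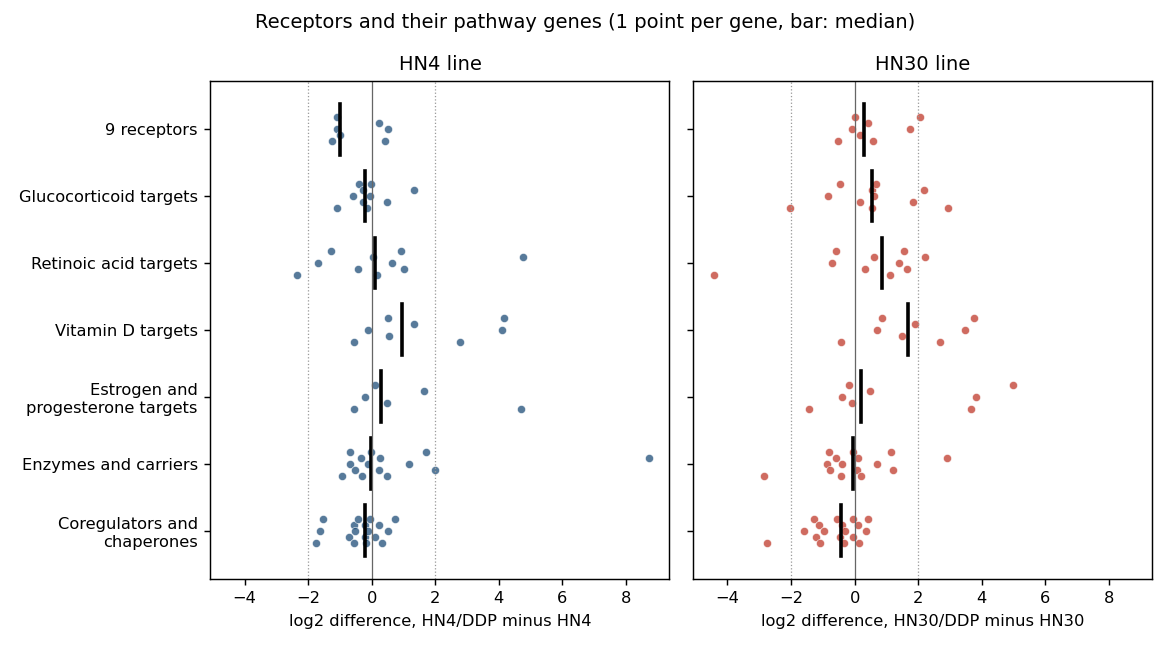
Log2 difference of resistant minus parental array (x axis) for the receptors and the genes of the 6 lists of targets, enzymes and carriers, and coregulators and chaperones (y axis), 1 point per gene above background on either array of the pair, with the median as a black bar and dotted lines at -2 and 2, for the HN4 line (left) and the HN30 line (right). The receptors' median lies at -1.01 on the left and 0.30 on the right, and that of the vitamin D targets at 0.95 and 1.69.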

How the data were processed

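The 4 one-colour Agilent arrays, all on 1 slide and read in 1 scan, are those of the study. The authors deposited the scanner output with a processed intensity per spot, made by Agilent Feature Extraction 10.7.1.1, which subtracted background and trends within the array, with probe coordinates on hg19. They also deposited a log2 value table with the same quantiles on every array; its steps before that are not given in the sources used here.

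From log2 of each processed intensity, the 75th percentile over the non-control spots of its array was subtracted. Spots marked as outliers were dropped and repeat spots averaged. The probe brightest on average stood for its gene. A gene was tested where it was well above background on either array of a pair. A dim signal gives a bound from the lowest signal well above background on its array. All receptor probes were named, and of each list the genes past 2 in either line and the 2 brightest, apart from some that are not reported here. By accession, 16 of the 17 receptor probes matched RefSeq names. Exon or UTR positions of probes were not analysed here. The receptors and lists were chosen with earlier results of these data known. Alternatives were normexp (limma 3.58.1, R 4.3.3, offset 50), quantile normalization, median scaling, a pseudocount of 16, the deposited log2 values, outlier spots kept, dim signals at their bound, the mean of probes, a limit of 1 and both arrays above background. Counting was tested on simulated data. Python 3.11.15, numpy 2.4.6, pandas 2.3.3 and matplotlib 3.10.9 were used.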

Additional observations from a re-analysis of the deposited data

Results flagged for a closer look

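A pair of receptor probes differed in opposite directions in the lines, each by more than 2 scanner SDs. The NR3C1 probe at chr5:142673451-142673510 was lower in HN4/DDP and higher in HN30/DDP, with a gap of 2.07 on the log2 scale between the differences of the HN30 and HN4 lines. Its difference in HN30/DDP, 0.85 in the main setting, came down to 0.43 with scaling on the array median. The RXRA probe had a gap of 1.43, and its difference in HN30/DDP shrank to 0.0012 with scaling on the array median. Neither gap was tested, since each line has 1 array per condition.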

How the results depend on the processing

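For the 10 receptor probes above background on all arrays, 1 of 70 recomputed differences in HN4/DDP and 29 of 70 in HN30/DDP moved by more than 1 scanner SD. NR3C2, the 1 receptor counted as higher in HN30/DDP, was no longer counted (0 receptors) with normexp, quantile normalization, median scaling, a pseudocount of 16 or the deposited log2 values, and a limit of 1 counted 2. In HN4/DDP, 0 receptors were lower at a limit of 2 and 4 at a limit of 1. The median of the receptors in HN30/DDP, 0.30, was 0.75 with quantile normalization, 0.72 with the deposited values and -0.12 with median scaling. No paired analysis was possible because each comparison, within a line, holds 1 pair of arrays. A model of both lines, blocked by line and with 1 degree of freedom to spare, was not fitted, since the receptors were chosen on this contrast.

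Over all genes, 970 were higher and 590 lower in HN4/DDP, against 258 and 175 with normexp, 488 and 305 with the pseudocount, 593 and 384 with dim signals at their bound, 387 and 290 with both arrays above background, and 2500 and 2322 at a limit of 1. In HN30/DDP, 2371 were higher and 779 lower, against 557 and 371, 1085 and 531, 1440 and 628, 1036 and 566, and 5605 and 3756 in the same order. Median scaling split HN30/DDP into 1545 higher and 1532 lower. Vitamin D targets counted as higher in HN30/DDP numbered 1 with normexp and 4 with the mean of probes, against 3. Receptor probes dim on all 4 arrays have no measured order. The RARB and ESR1 probes dim on some arrays have only the bounds given above against their parental arrays. The cause of the shifts in these counts was not tested.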
